A study of Mus musculus with 4 samples.

Results

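This report covers 9 genes of the red cell membrane and its skeleton, Rhag, Rhd, Slc4a1, Aqp1, Ermap, Tspo2, Ank1, Epb42 and Add2, out of 22180 genes measured on 4 arrays. They were taken by gene symbol, and each had at least 1 probe set (a group of array probes summarised to 1 value) assigned to that gene alone. All 9 were tested, with no filter on low values, and Ank1 had 2 probe sets, which made 10 probe sets in all. The RNA was from LSK cells of the bone marrow, which lack lineage markers, carry Sca1 and c-Kit, and are rich in blood stem cells and multipotent progenitors. Of the 4 samples, 2 came from wild-type mice (WT) and 2 from SRC-3 knockout mice (KO), and all mice were males aged 8 weeks. In both groups marrow was flushed from femur and tibia, red cells were lysed, and LSK cells were sorted by flow cytometry. The sources used here do not give the knockout allele, the strain or the number of mice behind a sample. Samples of a group are labelled as biological replicates. If they share mice, the p-values cover only a spread between samples that may be technical.

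The red cell keeps its shape and strength because its lipid membrane is tied to a meshwork of spectrin and short actin filaments. Ankyrin links spectrin to band 3, the anion exchanger, with protein 4.2 beside it, and the Rh proteins sit in the same complex, while adducin caps the actin filaments at a second point of attachment. Developing red cells do not switch all of these genes on together. Some are transcribed in early progenitors and others, among them band 3, mainly in maturing erythroblasts.

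SRC-3 is encoded by Ncoa3, whose level was 7.76 and 7.05 in WT and 5.35 and 5.09 in KO, a difference of -2.19 ± 0.27 (log2, SE, limma adjusted p = 0.038). Array medians over all genes were 4.25 to 4.37, and arrays of one group correlated at 0.986 (WT) and 0.992 (KO) across genes, which are not independent replicates. Of the 7 LSK gate and progenitor markers, 6 were analysed. Kit was at 9.65 to 10.3 in WT and 9.34 to 9.43 in KO, and Cd34 at 10.7 to 10.9 and 10.1 to 10.2. The largest difference was that of Flt3, at 9.22 and 8.46 in WT and 7.76 and 7.52 in KO. It was -1.21 ± 0.27 (log2, SE, limma adjusted p = 0.11). Of the 6, 4 had a lower and 2 a higher mean in KO. Limma called 0, and 3 (Cd34, Flt3 and Kit) were lower in KO at p under 0.05 before adjustment. Ly6a, which encodes Sca1, was not analysed here. In bulk RNA a change in the share of cells that carry a transcript and a change in RNA per cell cannot be told apart.

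In KO, 7 of the 9 membrane and skeleton genes rose, between 3.06-fold and 15.6-fold, and none fell, at an adjusted p under 0.05 (limma, moderated linear model on log2 values, adjusted by Benjamini-Hochberg over all 22180 genes). Over all genes, 88 rose, which is 0.397%, and 25 fell, which is 0.113%. The genes that rose were Ermap, Rhag, Add2, Tspo2, Aqp1, Ank1 and Rhd. Epb42 was 0.68 higher on the log2 scale and Slc4a1 was 0.96 lower in KO (-0.96), and neither passed the threshold. Before adjustment, 8 of the 9 were higher at p under 0.05, against 10.5% of all genes, and 1 was lower, against 6.93%. Both KO arrays lay above both WT arrays for 8 of the 9, against 25.1% of all genes, and below them for Slc4a1, as for 22.9% of all genes. Ordered by the difference, Ermap ranked 1, Rhag 4, Add2 14, Tspo2 17 and Aqp1 21 among the 22180 genes, while Epb42 ranked 1074 and Slc4a1 22001. The 9 genes were chosen with earlier results of these data known, so these counts and ranks can follow from the choice.

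**Figure D1:**
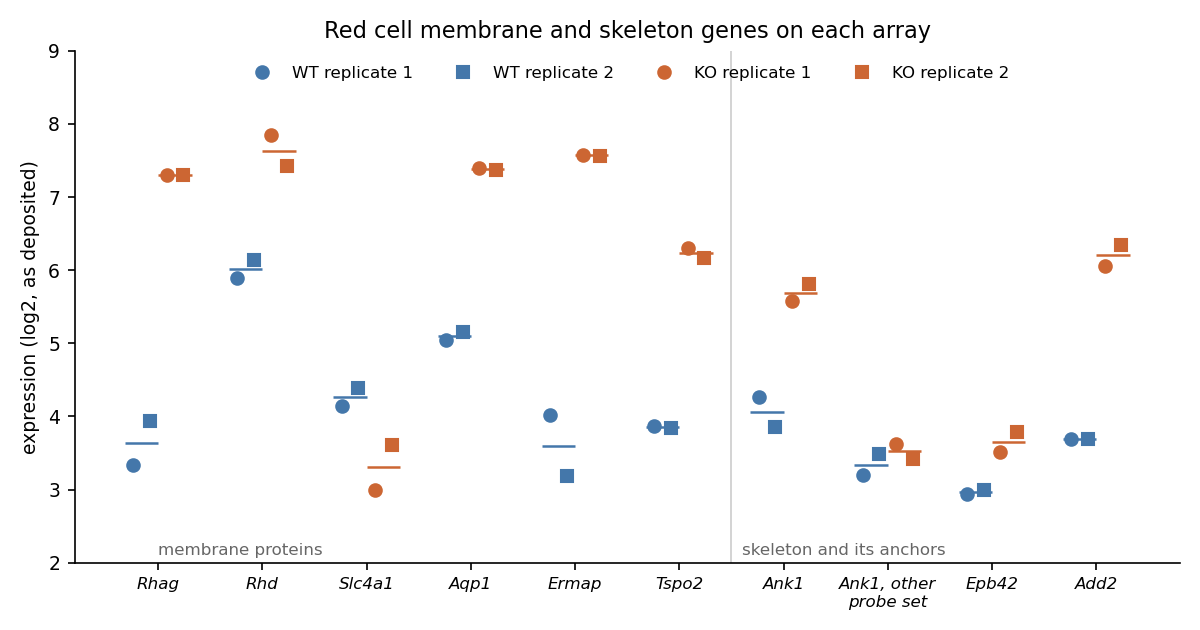
The vertical axis is the deposited log2 expression value and the horizontal axis lists the 9 genes, with Ank1 shown for both its probe sets; each point is 1 array and each bar the mean of a group's 2 arrays. The KO points lie above the WT points for 8 of the 9 genes and below them for Slc4a1, and the groups overlap at the other Ank1 probe set.

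Rhag encodes the Rh-associated glycoprotein, a membrane channel protein of the ammonium transporter family that the Rh proteins need to reach the cell surface. The gene lies at chr17:40811099-40844094 (GRCm38.p6). Its log2 level was 3.34 and 3.94 on the WT arrays and 7.31 and 7.30 on the KO arrays. Both KO arrays were high and nearly equal, whereas the WT arrays differed by more and did not approach them. The rise was 12.7-fold, or 3.67 ± 0.24 (log2, SE, limma adjusted p = 0.0090). Rhd, at chr4:134864536-134896172, encodes the Rh protein that pairs with it. Rhd stood at 5.90 and 6.14 in WT and at 7.84 and 7.42 in KO. The groups did not overlap, and it rose 3.06-fold, by 1.61 ± 0.21 (limma adjusted p = 0.047). The relatives Rhbg and Rhcg, ammonium transporters of kidney and other epithelia, were at -0.41 ± 0.23 and -0.22 ± 0.18 (log2, SE) and did not pass.

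Ermap encodes the erythroblast membrane-associated protein, an immunoglobulin superfamily member of the butyrophilin type that carries the Scianna blood group antigens in humans. It lies at chr4:119175457-119190013. WT arrays were at 4.02 and 3.19 and KO arrays at 7.58 and 7.56. The WT arrays were thus 0.83 apart while the KO arrays were close together, and the groups did not overlap. Its rise of 15.6-fold, 3.97 ± 0.29 (log2, SE, limma adjusted p = 0.0090), ranked first among the increases with all 4 arrays. Without WT replicate 2 it was 3.55, below the 3.97 of Rhag. Its WT values lay below the median gene of the arrays, 4.32, where values are compressed and no detection calls were used, so the fold is approximate; the same holds for the WT values of Rhag, Add2, Tspo2 and Ank1. Its butyrophilin relatives Btn1a1 and Btn2a2 were at -0.21 ± 0.16 and -0.09 ± 0.17.

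Promoter windows are shown for Rhag and Ermap, which rose most, for Epb42, which shares a motif with them, and for Add2, which rose without that motif. The windows come from RefSeq (GRCm38.p6) and run from 250 bases before to 50 bases after a start site; 7 of the 9 genes were matched. Capitals mark 3 patterns searched on both strands: GATAA, the core that GATA factors bind; CCNCNCCC, which includes CACCC elements of the kind bound by KLF1; and a composite of CTG, any 9 bases and GATAA, in which part of an E-box lies beside a GATA core, an arrangement known from sites bound by TAL1 with GATA1. The composite pattern contains the GATAA pattern, so its matches are counted under both. On the opposite strand GATAA reads TTATC and CTG reads CAG.
Rhag (chr17:40810899-40811198, plus strand): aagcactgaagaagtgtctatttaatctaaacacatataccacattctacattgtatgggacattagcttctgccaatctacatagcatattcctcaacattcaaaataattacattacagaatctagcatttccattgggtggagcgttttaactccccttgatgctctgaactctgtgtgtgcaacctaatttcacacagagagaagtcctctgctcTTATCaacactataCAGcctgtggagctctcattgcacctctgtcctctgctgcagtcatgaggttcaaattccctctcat
Ermap (chr4:119189946-119190245, minus strand): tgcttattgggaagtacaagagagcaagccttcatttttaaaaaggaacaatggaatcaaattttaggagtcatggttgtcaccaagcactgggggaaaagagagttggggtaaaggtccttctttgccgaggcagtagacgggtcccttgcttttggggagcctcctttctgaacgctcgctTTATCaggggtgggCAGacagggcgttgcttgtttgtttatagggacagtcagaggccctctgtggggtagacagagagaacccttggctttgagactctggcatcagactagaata
Epb42 (chr2:121036828-121037127, minus strand): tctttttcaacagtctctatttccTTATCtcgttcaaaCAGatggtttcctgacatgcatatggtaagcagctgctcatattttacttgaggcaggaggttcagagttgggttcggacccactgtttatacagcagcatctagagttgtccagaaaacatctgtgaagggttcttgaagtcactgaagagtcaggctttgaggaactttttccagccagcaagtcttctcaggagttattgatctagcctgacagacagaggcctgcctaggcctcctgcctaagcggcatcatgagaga
Add2 (chr6:86028431-86028730, plus strand): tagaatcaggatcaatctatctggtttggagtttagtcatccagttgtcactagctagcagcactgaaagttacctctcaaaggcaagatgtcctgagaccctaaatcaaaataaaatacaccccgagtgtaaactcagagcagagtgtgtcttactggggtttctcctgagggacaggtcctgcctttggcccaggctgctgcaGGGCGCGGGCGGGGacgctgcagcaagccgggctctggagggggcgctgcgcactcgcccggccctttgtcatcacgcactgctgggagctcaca
The composite stood in 3 of the 7 windows, Rhag, Ermap and Epb42, and in 0.9% of all 32851 windows. GATAA stood in 4 of the 7, those 3 and Rhd, against 25.4% of all windows. CCNCNCCC stood in 4 of the 7, Rhd, Add2, Aqp1 and Tspo2, against 49.5%. Counted from the start site, the match began at position -31 in Rhag, -67 in Ermap and -226 in Epb42. A match describes letters and not a bound site. Of the genes with the composite, Rhag and Ermap rose and Epb42 did not pass, while Add2, Aqp1 and Tspo2 rose with neither GATA pattern in these windows. Among 22 windows of early red cell genes listed further on, the composite stood in 3, and among 20 windows of late ones in 1.

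Aqp1 encodes the water channel of the red cell membrane, which endothelium and kidney also express. The gene lies at chr6:55336299-55348555. Its level was 5.04 and 5.16 in WT and 7.40 and 7.36 in KO. The 2 arrays of each group lay close together and the groups were far apart. It rose 4.86-fold, by 2.28 ± 0.17 (log2, SE, limma adjusted p = 0.0090). Of 6 other aquaporin genes none passed the threshold, although Aqp11, at 3.95 and 4.98 in WT and 6.22 and 6.10 in KO, was 1.69 ± 0.33 higher (adjusted p = 0.089). Aqp9, an aquaglyceroporin of leukocytes, was 0.72 ± 0.18 higher (adjusted p = 0.13), and Aqp3, Aqp4, Aqp5 and Aqp8 lay between -0.46 and 0.11. Endothelial and stromal markers were compared because endothelium carries Aqp1. Of 12 such markers limma called 0 and 1, Pecam1, was lower at p under 0.05 before adjustment. Their summed linear signal was 533 to 573 in WT and 436 to 467 in KO. Most of that sum came from Pecam1 alone, at 8.43 and 8.42 in WT and 8.03 and 7.94 in KO. The median difference of the 12 was -0.05. What part endothelium has in the Aqp1 signal was not tested.

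Tspo2 is the red cell relative of the mitochondrial translocator protein and has been tied to cholesterol handling in maturing erythroblasts. It lies at chr17:48447942-48451564. WT arrays read 3.86 and 3.84 and KO arrays 6.31 and 6.16, with no overlap. The rise was 5.22-fold, 2.38 ± 0.17 (log2, SE, limma adjusted p = 0.0090). Tspo, the widely expressed relative, was at 10.1 and 9.78 in WT and 10.3 and 10.3 in KO. The Tspo difference of 0.39 ± 0.15 did not pass (adjusted p = 0.26).

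Slc4a1 encodes band 3, the anion exchanger that carries bicarbonate and chloride and anchors the skeleton. It lies at chr11:102348820-102365281. In contrast to the other 8 genes it had a lower mean in KO. WT arrays stood at 4.15 and 4.38 and KO arrays at 2.999 and 3.61. Both KO arrays were below both WT arrays, and the KO arrays were 0.61 apart. The difference was -0.96 ± 0.24 (log2, SE, unadjusted p = 0.0063, limma adjusted p = 0.13), so that a fall was not called. Slc4a2 and Slc4a3, the anion exchangers of other tissues, were at 0.04 ± 0.21 and 0.00 ± 0.17. The KO values of Slc4a1 lay below the median gene, 4.32, and so did its WT mean of 4.27.

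Ankyrin and protein 4.2 bind band 3 on the inner face of the membrane. Ank1, at chr8:22974836-23150501, encodes ankyrin-1, which ties spectrin to band 3. The brighter of its probe sets was at 4.26 and 3.86 in WT and 5.57 and 5.81 in KO. It rose 3.10-fold, by 1.63 ± 0.21 (log2, SE, limma adjusted p = 0.044). Its other probe set was at 3.19 and 3.48 in WT and 3.62 and 3.42 in KO, with overlapping groups and a difference of 0.18 ± 0.18 (adjusted p = 0.68 over all single-gene probe sets). The 2 probe sets thus disagreed, and with their mean as the value of the gene the difference was 0.91 (adjusted p = 0.077), which is no longer called. The sources used here do not say which part of the gene each reads. Ank2 and Ank3, the ankyrins of other tissues, were at 0.02 ± 0.17 and -0.05 ± 0.21.

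Epb42, at chr2:121017891-121036877, encodes protein 4.2, a transglutaminase relative without enzyme activity that binds band 3 and ankyrin. Its values were low on all arrays, at 2.94 and 2.9998 in WT and 3.51 and 3.78 in KO. The groups did not overlap, with a difference of 0.68 ± 0.17 (log2, SE, unadjusted p = 0.0069, limma adjusted p = 0.13). Tgm2, a transglutaminase with activity, was at 0.35 ± 0.21. Values this low on the array are compressed, so the size of this difference is approximate.

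Add2, at chr6:86028681-86124409, encodes beta-adducin, which caps actin filaments and joins them to spectrin. WT arrays were at 3.70 and 3.69 and KO arrays at 6.06 and 6.34. The WT arrays were nearly equal and both KO arrays were far above them. It rose 5.69-fold, by 2.51 ± 0.18 (log2, SE, limma adjusted p = 0.0090). Alpha-adducin (Add1) and gamma-adducin (Add3), which most tissues express, were at 0.12 ± 0.27 and -0.04 ± 0.17 and their groups overlapped. Over all 18 relatives of the 9 genes, 0 passed the limma threshold in either direction, 3 had a higher level at p under 0.05 before adjustment (Aqp11, Aqp9 and Tspo), and the median difference was 0.0038. The difference between each red cell gene and its relatives was not tested.

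**Figure D2:**
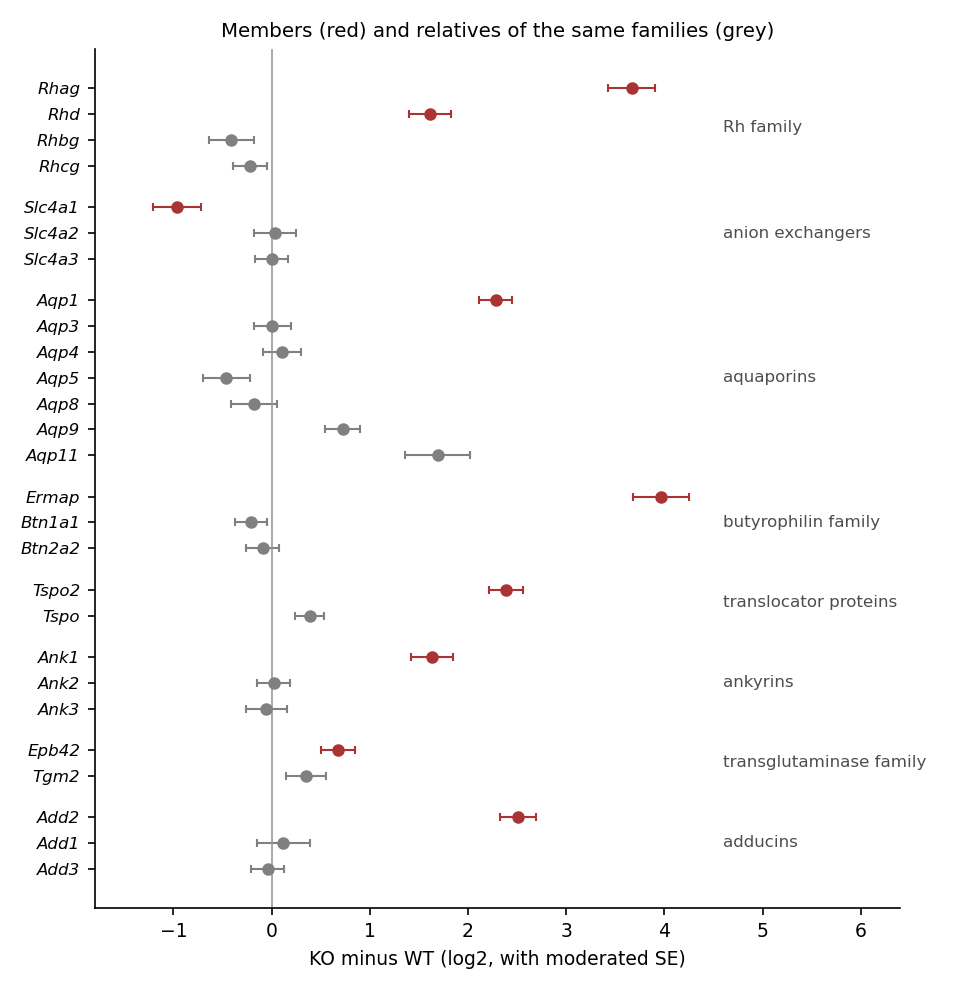
The horizontal axis is the log2 difference KO minus WT with its moderated standard error (n = 2 arrays per group), for the 9 genes in red and 18 relatives in grey, grouped by family. 7 red points lie at or above 1.61, whereas Epb42 is at 0.68, Slc4a1 at -0.96 and all relatives except Aqp11 and Aqp9 lie between -0.46 and 0.39.

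The number of calls changed with the array left out. Each such fit leaves 1 array in a group, which is assumed to vary like the pair of the other group, and the KO arrays were closer to each other than the WT arrays (SD of their log2 differences over all genes 0.279 and 0.382). Without WT replicate 1 or WT replicate 2, limma still called 7 of the 9 genes, while over all genes it called 1442 higher and 312 lower, and 1730 and 1272. Without KO replicate 1 or KO replicate 2 it called 0 of 22180 genes, although 1471 and 1910 genes had an unadjusted p under 0.05, among them 8 of the 9 as higher in both cases. The sign of each of the 9 differences was the same in all 4 fits. Rhag ranged from 3.36 to 3.97 and Ermap from 3.55 to 4.38 over the 4 fits, Add2 from 2.37 to 2.65, Tspo2 from 2.31 to 2.46, Aqp1 from 2.23 to 2.34, Ank1 from 1.43 to 1.83, Rhd from 1.40 to 1.82, Epb42 from 0.54 to 0.81 and Slc4a1 from -1.27 to -0.66. Adjusted p-values without a KO array ran from 0.27 to 0.49 for Rhag, Ermap, Add2, Tspo2 and Aqp1. The root mean square difference over the 9 genes was 0.388 between the WT arrays, 0.295 between the KO arrays and 2.40 to 2.48 between arrays of different genotype.

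**Figure D3:**
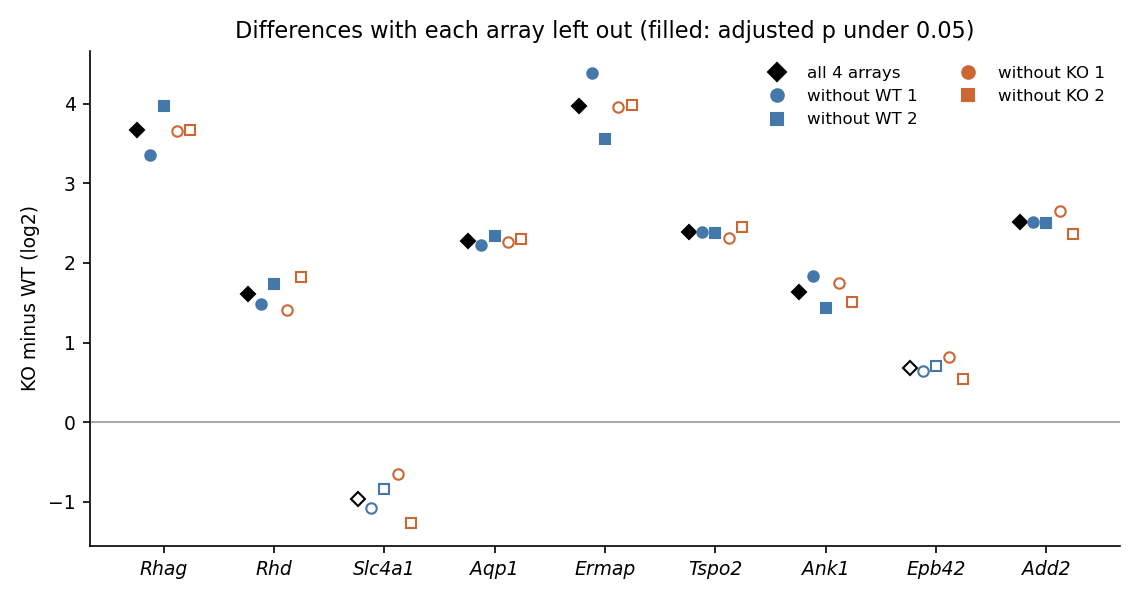
The vertical axis is the log2 difference KO minus WT for each of the 9 genes, from all 4 arrays (black) and from 3 arrays, leaving out 1 at a time (blue for a WT array, orange for a KO array); filled symbols passed an adjusted p of 0.05. Symbols of a gene stay on one side of 0, and all symbols without a KO array are open.

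Other genes of the red cell membrane were taken from a list of 36. Of these 32 were measured, 2 rose, against 0.397% of all genes, and 0 fell, against 0.113%, and the median difference was 0.07, against -0.0010 over all genes. Among the skeleton genes 8 of 10 were measured and limma called 0, while before adjustment 1 had p under 0.05. That gene was Sptb, for beta-spectrin, at 3.995 and 4.09 in WT and 4.93 and 4.63 in KO, a difference of 0.74 ± 0.19 (log2, SE, adjusted p = 0.13). Mpp1, for the palmitoylated p55 protein, and Tmod1, for the tropomodulin that caps the pointed ends of actin, were at 0.36 ± 0.17 and 0.50 ± 0.23. Dmtn, for dematin, was at 0.00 ± 0.17 (-0.0016).

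Surface proteins supplied both of the genes that rose. Cldn13, a claudin that mouse red cell precursors express, rose 5.12-fold from 4.14 and 4.399 to 6.75 and 6.50 (limma adjusted p = 0.011). Kel, for the Kell blood group endopeptidase, rose 4.57-fold from 4.41 and 3.95 to 6.41 and 6.34 (adjusted p = 0.021). Icam4, the Landsteiner-Wiener adhesion molecule, was 1.45 ± 0.24 higher (log2, SE) and did not pass (adjusted p = 0.065). Xk, whose product is bound to Kell, was 0.51 ± 0.18 higher (adjusted p = 0.22). Cd44, an adhesion receptor that falls as erythroblasts mature, was at -0.77 ± 0.19 (adjusted p = 0.13). Of 11 measured surface genes 2 rose and 0 fell, with a median of 0.30.

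Transport genes showed no call, with 13 of 14 measured and a limma count of 0. Before adjustment 1 was higher and 3 were lower at p under 0.05. Their median was 0.02. Atp2b4, a plasma membrane calcium pump, was at -1.11 ± 0.27 (log2, SE, adjusted p = 0.13), and Slc2a1, the glucose transporter, at -0.56 ± 0.17 (adjusted p = 0.18). Abcb6, a porphyrin transporter that carries the Langereis blood group, was 0.72 ± 0.19 higher (adjusted p = 0.14). For Slc12a4, a potassium and chloride cotransporter, the difference was -0.44 ± 0.17 (adjusted p = 0.26). Without WT replicate 2 the median over all 32 other membrane genes was -0.039 and without WT replicate 1 it was 0.21.

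Genes of early and late red cell development were then set side by side. All 18 early genes, among them regulators and enzymes of erythroid progenitors, were measured, and 6 rose and 0 fell. Over all genes 0.397% rose and 0.113% fell. Their median was 1.02, and before adjustment 12 were higher and 1 was lower at p under 0.05, against 10.5% and 6.93% of all genes. Those that rose were Ces2g by 11.5-fold, Car1 by 10.8-fold, Klf1 by 5.46-fold, Blvrb by 4.74-fold, Cpox by 2.79-fold and Gfi1b by 2.70-fold. Epor, the erythropoietin receptor gene, at 5.02 and 4.45 in WT and 6.43 and 6.31 in KO, was 1.64 ± 0.23 higher (log2, SE, limma adjusted p = 0.055). Of 29 late genes 17 were measured, 2 rose and 0 fell. Their median was 0.32, and 6 were higher at p under 0.05 before adjustment. The late genes that rose were Kel and Tspan33, a tetraspanin of erythroid cells, which rose 2.52-fold (adjusted p = 0.0498). Hemgn, for hemogen, was 0.86 ± 0.20 higher and Fech, for the last enzyme of heme synthesis, 0.72 ± 0.18 (adjusted p = 0.11 and 0.12). Restricted to genes whose mean over all 4 arrays reached the median gene, 4.32, the late list had a median of 0.61. Kel, Sptb and Tmod1 had WT means below that level and KO means above it. They were thus kept because of their higher KO values, so the 0.61 partly follows from the restriction. Of the measured late genes 5 are also among the other membrane genes, as is Icam4 of the early list. Without those 5 the late median was 0.17 over 12 genes, with 1 called. Both lists were chosen with earlier results of these data known, and the difference between the lists was not tested.

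Divided by when their transcripts appear, Rhag, Ermap, Add2, Aqp1 and Ank1 were counted as early and all 5 rose, with a median of 2.51. Rhd, Slc4a1, Epb42 and Tspo2 were counted as late, and Rhd and Tspo2 of these 4 rose, with a median of 1.15 and a range from -0.96 to 2.38. Over all genes 0.397% rose. The basis of the division is not given here, and the genes and lists were chosen with earlier results of these data known. The counts can therefore follow from how the genes were sorted, and the difference between early and late was not tested. The summed linear signal was 87.6 to 91.4 in WT and 633 to 648 in KO for the early 5, and 99.5 to 114 and 269 to 328 for the late 4. Both KO arrays lay above both WT arrays in either sum, as they did for 25.1% of all genes. Most of the late sum came from Rhd alone, at 5.90 and 6.14 in WT and 7.84 and 7.42 in KO. It therefore does not show the lower level of Slc4a1 in KO.

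**Figure D4:**
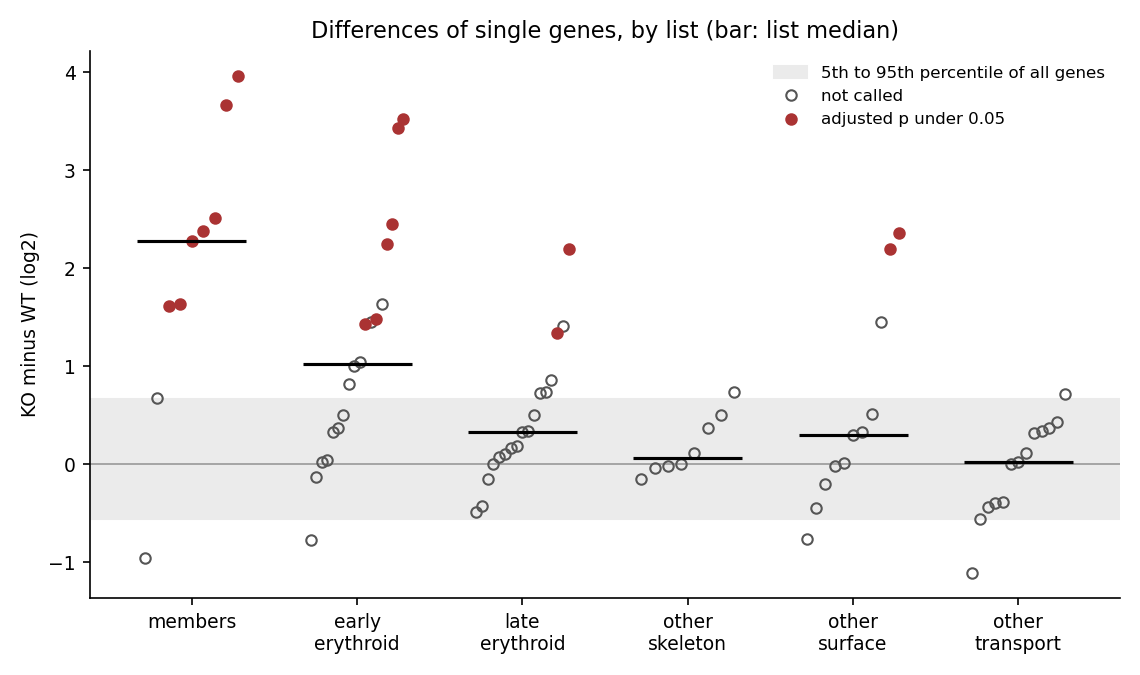
The vertical axis is the log2 difference KO minus WT; each point is 1 gene, ordered by value within its list, filled where the adjusted p was under 0.05, with a bar at the list's median and a grey band from the 5th to the 95th percentile of all genes. Medians are 2.28 for the 9 genes (members), 1.02 for early and 0.32 for late erythroid genes, and 0.06, 0.30 and 0.02 for the other skeleton, surface and transport genes.

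Transcripts that define hemoglobin-making erythroblasts were read only by probe sets shared between genes, and their levels did not separate the groups past the threshold. The brightest beta-globin probe set, assigned to 3 beta-globin genes, was at 8.70 and 9.59 in WT and at 9.86 and 10.1 in KO. The groups did not overlap, and the difference was 0.83 ± 0.31 (log2, SE, limma unadjusted p = 0.045, adjusted p = 0.29 over all probe sets). The other 2 beta-globin probe sets read between 1.62 and 3.18 on the 4 arrays and differed by 0.02 and -0.31. The 2 alpha-globin probe sets read between 3.88 and 5.33 and differed by -0.09 ± 0.30 and 0.88 ± 0.22 (adjusted p = 0.92 and 0.17). A probe set shared by Alas2, the erythroid gene of the first step of heme synthesis, and a neighbour was at -0.25 ± 0.20. What part erythroblast RNA has in the rises was not tested.

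Markers of other cells were read on the same arrays. Neutrophil markers were higher by a median of 0.93 over all 8, with 0 called by limma and 6 at p under 0.05 before adjustment. Their summed linear signal was 5696 to 7335 in WT and 7912 to 7937 in KO. Most of that sum came from Mpo, at 12.16 and 11.79 in WT and 12.04 and 12.02 in KO, and from Elane. The sum therefore shows little of the other neutrophil markers. Those of smallest p, Camp, Ngp and S100a8, were 3.48-fold, 2.22-fold and 2.83-fold higher (limma adjusted p = 0.056, 0.056 and 0.0897). Megakaryocyte and platelet markers had 0 of 10 called, 2 higher at p under 0.05 before adjustment (Pf4 and Gp5, at 1.27 ± 0.26 and 1.16 ± 0.25), a median of 0.14 and sums of 376 to 413 in WT and 545 to 550 in KO. Macrophage markers had 0 of 12 called by limma and 0 at p under 0.05 before adjustment, a median of 0.09 and sums of 396 to 493 and 425 to 427. The LSK gate markers had a median of -0.51. The scale gives no zero, so no marker can be called absent, and the part of these cells in the result was not tested.

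Likeness over the 4 arrays was measured as the Euclidean distance between centred log2 profiles. The genes closest to the mean profile of the early 5 were Mt2, a metallothionein, at 0.315, Cxcl10, an interferon-induced chemokine, at 0.374, Atp1b2, a sodium pump subunit, at 0.421, Nxpe2 at 0.441 and Zbp1, a nucleic acid sensor, at 0.446. Each of these 5 rose, by 5.20-fold to 7.31-fold. A difference of this size follows from choosing genes by their nearness to a profile that is higher in KO.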

How the data were processed

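The 4 arrays analysed were 2 WT and 2 KO. The authors deposited log2 expression values for 41345 probe sets; per the submitters' processing notes RMA and Affymetrix Expression Console 1.2.1 were used; the sources used here do not give settings or genome build. Summaries by RMA compress dim values. The platform annotation gave 23521 probe sets 1 gene, 1814 several genes, and did not list 16010. Each gene took its single-gene probe set of highest mean, 22180 genes in all. The KO and WT arrays were compared by limma 3.58.1 under R 4.3.3 with an intensity trend, two-sided p-values adjusted by Benjamini-Hochberg and a threshold of 0.05; errors of differences are moderated SE. The smallest p that an exact permutation test of 2 against 2 arrays allows is 0.333, so none was used. Lists are described by counts and medians only. The 9 genes and the lists were chosen with earlier results of these data known. Named are the 9 genes, Ncoa3, their relatives, the shared globin probe sets, and from each list up to 8 called genes and otherwise up to 4 of smallest p; other list genes named, such as Epor, Hemgn, Fech, Dmtn, Kit, Cd34, Pf4 and Gp5, were chosen after their values were seen. Alternatives were the replicate block, probe set means, a median filter, quantile or median scaling, no trend, no moderation, and each array left out.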

Additional observations from a re-analysis of the deposited data

How the results depend on the processing

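The direction of all 9 genes was the same under each alternative in which they were tested; the median filter left out Slc4a1 and Epb42. The count of 7 higher genes was 6 with the replicate block, where Rhd had an adjusted p of 0.052, and 6 with probe set means, where Ank1 was lost. It was 0 to 7 with each array left out and 0 by least squares without limma's moderation, where all-gene counts were 0 and 0 and 2599 genes had an unadjusted p under 0.05, 8 of the 9 among them as higher. Replicate numbers are not said to mark pairs; deviations of same-numbered arrays correlated at 0.113 over all genes, and the block gave 83 higher and 28 lower genes. All-gene counts of 88 higher and 25 lower became 208 and 81 with the median filter, 142 and 47 after quantile normalization and 196 and 51 after median scaling, and 0 to 1730 and 0 to 1272 with each array left out. The early median ran from 0.93 to 1.12 with each array left out and the late median from 0.31 to 0.36. The late median was 0.61 with the median filter, which uses the mean over KO and WT arrays. That filter kept Kel, Sptb and Tmod1, whose WT means lay below the median gene. The other membrane genes' median ran from -0.039 to 0.21, reversed without WT replicate 2. The cause was not tested. Precision is limited by 2 arrays per group and by low signal, below the median gene. Such signal was seen for Slc4a1 in KO and, by its mean, in WT, and for Epb42 in both groups. It was also seen for Rhag, Ermap, Add2, Tspo2 and Ank1 in WT, whose folds are therefore approximate.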

Other observations

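Cnrip1, listed with the early genes, of which 16 of 18 had a higher mean in KO, was at 5.93 and 5.93 in WT and 5.13 and 5.17 in KO, a difference of -0.78 ± 0.17 (log2, SE, limma adjusted p = 0.10). Zfpm1, the cofactor of GATA1, was at 7.58 and 5.77 on the WT arrays and at 7.04 on both KO arrays, so its WT arrays were further apart than those of any of the 9 membrane genes. Tpm3, for a tropomyosin of the actin filaments, read 9.30 and 9.22 in WT and 9.24 and 9.25 in KO at its brighter probe set, and its other probe set read 6.01 and 6.06 in WT and 5.17 and 5.31 in KO, a difference of -0.79 ± 0.18 (adjusted p = 0.11 over all single-gene probe sets). These genes were chosen after their values were seen.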
